A study of Rattus norvegicus with 7 samples.

Results

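Timm10 and 9 further genes of mitochondrial protein import, Timm8a1, Timm9, Timm13, Timm17a, Timm22, Timm23, Timm44, Tomm20 and Tomm70, were followed in the brains of rats bred for high or low alcohol drinking. Their members were the transcript probes whose accession was a RefSeq transcript of 1 of these 10 genes, and 8 of 33849 transcript probes qualified. These 8 probes belonged to 7 genes, with 2 probes for Timm10 and 1 each for Timm8a1, Timm13, Timm17a, Timm23, Timm44 and Tomm20. No probe matched Timm9, Timm22 or Tomm70, which were not analysed here. Timm10 had been picked because its probe GE1135776 differed between the lines in an earlier reading of these arrays, so it was selected on its P minus NP difference over these 7 arrays, and its values are a description and carry no test. The other genes were listed as partners in the same pathway.

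The samples were whole brains of adult male Wistar rats of the alcohol preferring (P) line, 4 rats (replicates 1 to 4), and of the alcohol non-preferring (NP) line, 3 rats (replicates 2 to 4). Both lines came from selective breeding, the rats were housed in pairs, and none had been given alcohol. Each rat's RNA was labelled with biotin and read on 1 array, so every value below is 1 rat. In whole tissue, fewer cells of a type and less RNA per cell cannot be told apart.

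Most mitochondrial proteins are made in the cytosol and must be carried into the organelle. Receptors of the outer membrane, such as Tomm20 and Tomm70, catch them and pass them through a common pore. The small Tim proteins, among them Timm8a1, Timm9, Timm10 and Timm13, are chaperones of the space between the membranes that keep water-shy proteins soluble on the way. Timm22 inserts carrier proteins into the inner membrane, while Timm17a and Timm23 form the core of the channel for proteins with a cleavable leader, whose pulling motor is anchored by Timm44.

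The deposited files gave no probe sequences, so the promoters of 3 members are shown instead. They are those of Timm10, Timm8a1 and Tomm20. The probes of these genes differed at an adjusted p under 0.05 between pairs of P rats, as described further on. Each promoter is the stretch of 250 bases before the transcript start given by RefSeq promoter records of the GRCr8 build. It is shown on the gene's own strand, with motif matches in capitals. The gene record of Timm10 begins within its stretch, ahead of that start.
Timm10, chr3:90314889-90315138, plus strand: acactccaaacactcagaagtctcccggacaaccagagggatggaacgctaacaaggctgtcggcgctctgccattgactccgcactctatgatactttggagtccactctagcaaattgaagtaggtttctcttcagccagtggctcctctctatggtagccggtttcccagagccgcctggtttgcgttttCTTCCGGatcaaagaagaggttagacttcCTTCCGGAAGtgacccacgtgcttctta
Timm8a1, chrX:102015445-102015694, minus strand: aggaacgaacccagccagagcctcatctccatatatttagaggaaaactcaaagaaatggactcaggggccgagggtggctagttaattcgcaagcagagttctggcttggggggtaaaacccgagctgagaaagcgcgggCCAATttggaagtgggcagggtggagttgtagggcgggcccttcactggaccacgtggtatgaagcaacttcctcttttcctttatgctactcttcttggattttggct
Tomm20, chr19:71832421-71832670, minus strand: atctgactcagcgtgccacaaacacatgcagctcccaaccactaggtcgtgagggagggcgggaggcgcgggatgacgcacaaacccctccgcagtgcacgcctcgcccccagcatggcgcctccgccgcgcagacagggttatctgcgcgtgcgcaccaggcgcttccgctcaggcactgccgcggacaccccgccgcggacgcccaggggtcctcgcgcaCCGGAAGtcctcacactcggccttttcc

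The motifs searched on both strands were the ETS core (CCGGAAG), the palindromic NRF-1 site, the CCAAT box and the TATA box (TATAAA). ETS family factors and NRF-1 are known to bind promoters of many nuclear genes for mitochondrial proteins. The ETS core was found 3 times before Timm10, where 2 of the matches overlap each other on opposite strands, and 1 time before Tomm20. It was present before 4 of the 10 listed genes, against 7.27% of 33469 rat promoters in windows of the same length. These were Timm10, Timm23, Tomm20 and Tomm70. Their stretches held 51.6%, 70.8%, 69.2% and 60% G or C, beside a median of 51.2% over all promoters. The part of base composition in these matches was not tested. The CCAAT box stood before 3 of the 10, against 34.0% of all promoters, and 1 of these was Timm8a1. Neither the palindromic NRF-1 letters (0.762% of all promoters) nor the TATA box (12.9%) occurred before any of the 10. Other forms of the NRF-1 site were not searched, so its absence cannot be read from this. These are matches of letters in a window and say nothing on binding.

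Values are log2 normalized signals, made from the scanner's spot and local background intensities. A probe was counted as above background on an array if its scanner flag marked it neither as near background nor as masked, irregular or contaminated. On the 7 arrays, 77.9% to 85.9% of transcript probes were above background. Of 18 genes with a probe that mark neurons, astrocytes, oligodendrocytes or microglia, 16 were above background in all 7 rats. Of 3 liver genes, which brain should lack, Serpina1 was above background in all 7 rats. Alb and Apoa1 were above background in some rats but not in all. Over all 7 rats no gene of these marker lists differed between the lines at an adjusted p under 0.05. Within scan date 1, described further on, 1 of 6 microglial probes did, beside 6.4% of all probes. It was that of Aif1 (-1.23, limma adjusted p = 0.0141), named after its value was seen, while the other 5 were above 0. The part of Aif1 in the results for that date was not tested. Scans fell on 3 dates. Date 1 took P 1 and P 2 with NP 2 and NP 3, date 2 took NP 4 alone, and date 3 took the remaining P 3 and P 4. Only date 1 held rats of both lines.

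Among the 8 member probes, 1 stood at an adjusted p under 0.05 between the lines in limma's fit to all probes, namely the Timm10 probe by which the gene had been chosen. Over all 29003 tested probes the share was 0.29%, and 0.155% for those lower in P. The count of members at an unadjusted p under 0.05 was 2, including that selected probe. With Timm10 left out it was 1 of 6 probes, against 11.5% of all probes. All 8 member probes passed the filter on dim probes, and 6 were above background in all 7 rats. Their median difference, P minus NP, was 0.07 on the log2 scale, beside 0.01 for all probes.

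Timm10, which pairs with Timm9 in a chaperone ring that escorts carrier proteins to the inner membrane, was measured by probes GE1135776 and GE13389, both annotated with the same transcript. Probe GE1135776 read 8.53, 8.21, 8.97 and 8.97 in P 1 to P 4, against 10.37, 10.35 and 10.08 in NP 2 to NP 4 (log2 normalized signal). Every P rat lay below every NP rat, with a gap of 1.10 between the highest P and the lowest NP value. The P mean was 8.67 ± 0.37 (SD, n = 4) against an NP mean of 10.27 ± 0.17 (SD, n = 3), a P minus NP difference of -1.60 ± 0.19 (SE) with a 95% interval of -2.03 to -1.17. On the linear scale the signal was 3.03-fold lower in P. The order was already visible before normalization, since the spots exceeded their local background by 289, 166, 608 and 555 intensity units in P 1 to P 4, against 1253, 1124 and 1092 in NP 2 to NP 4. All 7 spots carried the scanner's good flag.

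Among the tested probes GE1135776 ranked 32 of 29003 by size of difference and 48 by p. It was number 13 by size of the 45 probes that were lower in P at an adjusted p under 0.05. Near that threshold, the named gene just inside was Pard3 (P minus NP 1.25) and the one just outside Isca1 (0.99), an iron-sulfur assembly protein of mitochondria. These values restate how Timm10 was chosen.

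Probe GE13389 of the same Timm10 transcript read 9.27, 9.12, 9.75 and 9.78 in P 1 to P 4, against 9.55, 9.70 and 9.50 in NP 2 to NP 4. Here the lines overlapped, with P 1 and P 2 below and P 3 and P 4 above all NP rats. The P minus NP difference was -0.11 ± 0.18 (SE, limma adjusted p = 0.823), with a 95% interval of -0.50 to 0.28. The difference of GE1135776, by which it was selected, is given above as a description, and the probes were not tested against each other.

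**Figure D1:**
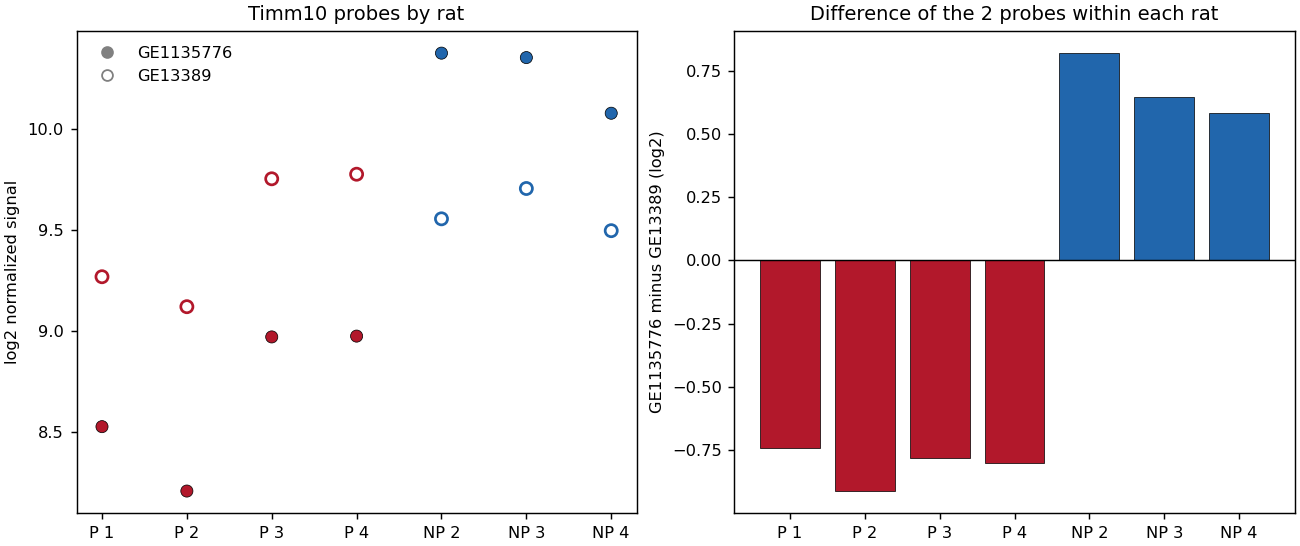
Left, log2 normalized signal of Timm10 probes GE1135776 (filled) and GE13389 (open) in each P rat (red) and NP rat (blue); right, GE1135776 minus GE13389 within each rat (log2). The difference lies between -0.91 and -0.74 in the 4 P rats and between 0.58 and 0.82 in the 3 NP rats.

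Within each rat the probes were then set against each other. GE1135776 minus GE13389 was -0.74, -0.91, -0.78 and -0.80 in P 1 to P 4, against 0.82, 0.65 and 0.58 in NP 2 to NP 4 (log2). It averaged -0.81 ± 0.07 (SD, n = 4) in P, against 0.68 ± 0.12 (SD, n = 3) for NP, so it shifted by -1.49 between the lines. The offset itself has no meaning, because signals of different probes share no common scale, and only its change from rat to rat can be read. Over the 4 P rats GE1135776 spanned 0.77 and GE13389 0.66 on the log2 scale, while their difference spanned 0.17. Over the 3 NP rats the spans were 0.30 and 0.21, and that of the difference was 0.24, so in NP it was no tighter than the single probes. Both probes were higher in P 3 and P 4 than in P 1 and P 2, by similar amounts. For 988 genes with at least 2 tested probes, the median spread of the line difference between probes of 1 gene was 0.16, and 95% of these genes lay under 0.51. Timm10 stood at 1.49, a value that rests on the probe selected for its line difference, so its place among these genes was fixed by that choice.

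The RefSeq table held 3 transcripts of Timm10 and no pseudogene under its symbol. Such copies, to which a probe might also bind, were listed for Timm23 (8), Timm8a1 (2), Tomm20 (2) and Timm17a (1), and no probe was checked against them. Of the protein-coding genes within 5 places of Timm10 on chromosome 3 in the GRCr8 order, 5 had a tested probe and none differed between the lines at an adjusted p under 0.05. The highest P minus NP difference was that of Ube2l6, a ubiquitin-conjugating enzyme (0.48 ± 0.16, SE, limma adjusted p = 0.347). The lowest was that of Prg2, an eosinophil granule protein (-0.19 ± 0.16, adjusted p = 0.654).

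The other small Tim proteins measured were Timm8a1 and Timm13, which act together in a second chaperone complex. TIMM8A is the gene of a human deafness and dystonia syndrome. Timm8a1 read 6.94, 6.97, 7.73 and 7.77 in P 1 to P 4, against 7.15, 7.22 and 6.85 in NP 2 to NP 4. The lines overlapped, and the P rats fell into a low and a high pair. Its P minus NP difference was 0.28 ± 0.23 (SE, limma adjusted p = 0.631), with a 95% interval of -0.22 to 0.78. Timm13 lay between 10.72 and 11.06 in the 4 P rats, against 10.62 and 10.83 in NP 2 and NP 3. The Timm13 spot of NP 4 was flagged as contaminated and left out, and the difference over the 6 remaining rats was 0.14 ± 0.15 (SE, adjusted p = 0.712).

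Timm17a, a channel subunit of the inner membrane, was the other member with an unadjusted p under 0.05, and it did not pass adjustment (limma adjusted p = 0.328). It read 10.58, 10.40, 10.54 and 10.33 in P 1 to P 4, against 10.97, 10.74 and 10.82 in NP 2 to NP 4. All P rats lay below all NP rats, although by a narrow margin. The difference was -0.38 ± 0.12 (SE), with a 95% interval of -0.65 to -0.11, and it kept its sign in all 17 other settings, between -0.43 and -0.32. Of the 7 member probes with 7 values, Timm17a and Timm10 GE1135776 were the 2 whose lines did not overlap. GE1135776 was selected on its line difference, so only Timm17a can be set beside the share over all such probes, 13.3%.

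Timm23, its partner in the channel, lay between 10.06 and 10.43 in P, against 9.92 to 10.19 in NP. The difference ran the other way, 0.19 ± 0.13 (SE, limma adjusted p = 0.572), with a 95% interval of -0.10 to 0.48. Timm44, the motor anchor, lay between 6.93 and 7.61 in P, against 7.11 to 7.36 in NP, and differed by 0.06 ± 0.16 (adjusted p = 0.906). The channel and motor genes thus gave no common direction, and none passed the threshold.

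Tomm20, the outer membrane receptor for leader sequences, read 6.53, 6.17, 7.15 and 7.36 in P 1 to P 4, against 6.57, 6.77 and 6.84 in NP 2 to NP 4. The NP rats lay between the low and the high pair of P rats. It differed by 0.08 ± 0.25 (SE, limma adjusted p = 0.916), with a 95% interval of -0.48 to 0.64. Its spot in P 2 was not above background, and its signals were weak, with 19 to 139 intensity units over local background in P and 47 to 69 in NP. The negative control spots had medians of 20.3 to 29.4 units and 95th percentiles of 55.2 to 81.5. The Tomm20 spot lay under the 95th percentile of its own array on 5 of 7 arrays (P 1, P 2 and all 3 NP rats), Timm8a1 on 2 (P 2 and NP 4) and Timm44 on 1 (P 2).

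**Figure D2:**
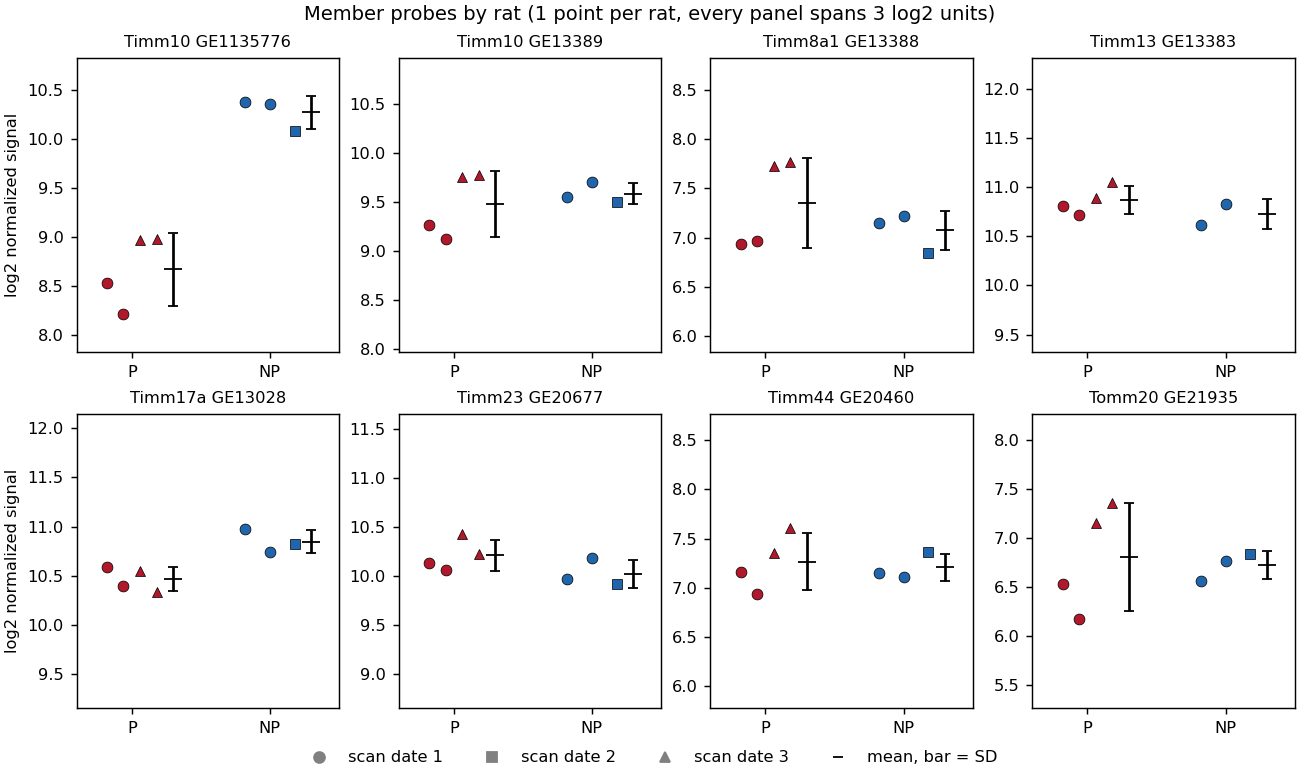
Log2 normalized signal of the 8 member probes in P rats (red) and NP rats (blue), 1 point per rat with the mean and SD beside them, and the point shape giving the scan date. Timm10 GE1135776 shows the lines apart (8.21 to 8.97 in P, 10.08 to 10.37 in NP). The P rats of date 3 lie above those of date 1 for every probe except that of Timm17a.

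For every member probe except that of Timm17a, both P rats of scan date 3 lay above both of date 1. The choice of members did not use scan date. P 3 and P 4 (date 3) were set against P 1 and P 2 (date 1) in a fit to all 7 arrays. Of the 8 member probes, 4 were higher on date 3 at an adjusted p under 0.05 and none was lower, beside 16.7% of all tested probes in either direction (9.15% higher and 7.56% lower). The P rats of date 3 exceeded those of date 1 by 0.90 ± 0.16 (SE, limma adjusted p = 0.0071) for Tomm20 and by 0.80 ± 0.12 (adjusted p = 0.00504) for Timm8a1. The size for Tomm20 depends on the background correction, because its spots were dim in P 1 and P 2, and plain subtraction gave 1.75 for it and 1.16 for Timm8a1. For Timm10 the date difference was 0.61 ± 0.14 (SE, adjusted p = 0.0185) by GE1135776 and 0.57 ± 0.13 (adjusted p = 0.0172) by GE13389. Both Timm10 probes thus showed a step of like size within the P line, 1.52-fold and 1.48-fold, while their P minus NP differences were -1.60 and -0.11 (log2). Timm44 (0.44), Timm23 (0.23), Timm13 (0.20) and Timm17a (-0.05) did not pass.

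Scan date and the pair of rats cannot be told apart in this step. The factor by which the scanner software scaled each array also moved with it, at 125 and 120 units for P 3 and P 4, against 90.7 and 70.2 for P 1 and P 2, and its part in the result was not tested. In the log2 values that the authors deposited 0 of the 8 probes passed, where only 0.0138% of all probes did. The date differences were larger there, at 1.78 for Tomm20 (limma adjusted p = 0.0530), 1.24 for Timm8a1 (adjusted p = 0.0503), and 0.75 and 0.64 for the Timm10 probes (adjusted p = 0.0748 and 0.0737). With plain background subtraction 1 of 8 passed, beside 1.99% of all probes. Leaving out a P rat leaves 1 array on that date, which is assumed to vary like the other groups. Without P 2 Timm8a1 was the only member that passed, beside 1.37% of all probes, and Tomm20 (0.72) and the Timm10 probes (0.45 and 0.50) did not. Timm8a1 and Tomm20 were the only members that passed without P 3, beside 6.42% of all probes, and without P 4, beside 13.8%. In the fit to all 7 arrays, 16.7% of all probes passed (9.15% higher and 7.56% lower on date 3). Among cell type markers in that fit, 4 of 6 microglial probes passed (1 higher and 3 lower). So did 1 of 6 astrocyte probes (lower), but none of 4 neuronal or 4 oligodendrocyte probes did.

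Within scan date 1, P 1 and P 2 were set against NP 2 and NP 3, which are part of the full comparison. Timm10 GE1135776 then differed by -2.00 ± 0.14 (SE), given again as a description. Timm10 GE13389 differed by -0.44 ± 0.13 (SE, limma adjusted p = 0.0789), which missed the threshold, where 6.4% of all probes passed. The other 6 members ranged from -0.37 for Timm17a to 0.04 for Timm13, and none passed. Including the selected probe, 6 of the 8 member probes were below 0 within date 1 and 3 of 8 over all rats, beside 46.2% and 48.6% of all probes. The sign of Timm8a1, Timm44 and Tomm20 depended on which rats were compared. A fit over all rats that blocks on scan date takes the line difference from the same 4 arrays and gave the same values, with 1 of 8 members passing, again the Timm10 probe, beside 5.72% of all probes.

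**Figure D3:**
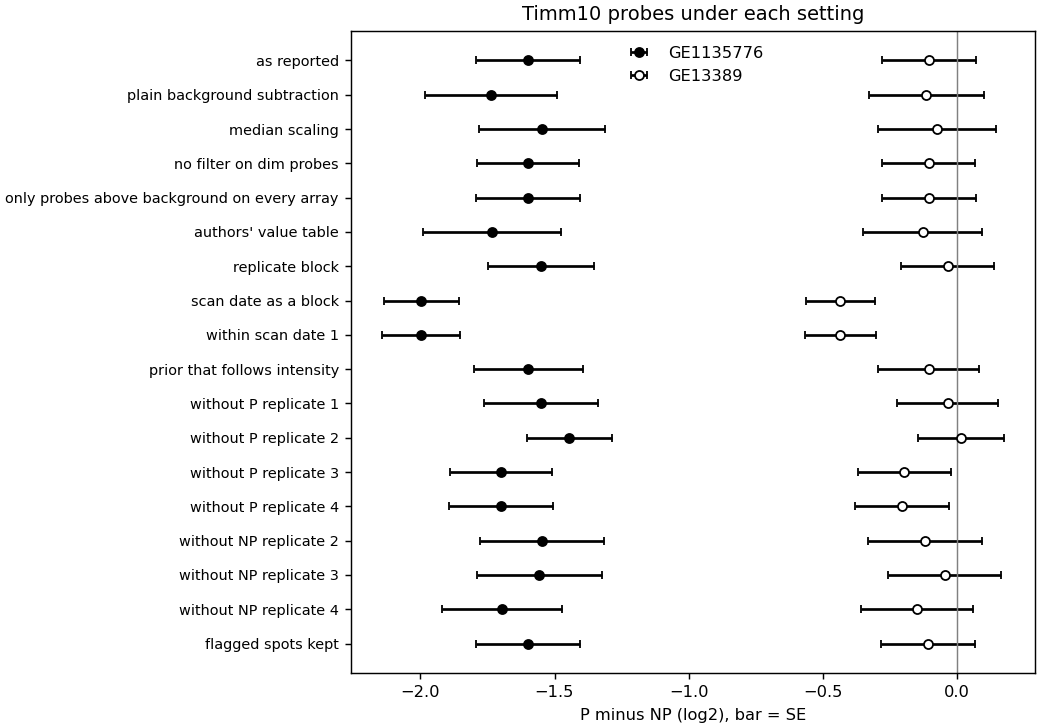
P minus NP difference (log2, bars are SE) of Timm10 probes GE1135776 (filled) and GE13389 (open) as reported and under 17 other settings. GE1135776 stays between -2.00 and -1.44 and GE13389 between -0.44 and 0.01.

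Beside the members, 39 other import genes were examined, of which 14 had a probe and 19 probes were tested. Over all 7 rats 0 of these 19 probes passed in limma's fit and 2 had an unadjusted p under 0.05, beside 0.29% and 11.5% of all probes. Their median difference was 0.03 on the log2 scale, with 10 above and 9 below 0.

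The first of these import genes by p were the matrix chaperonin Hspd1 (probe GE1159255, -0.54 ± 0.19, SE), the channel subunit Timm21 (-0.51 ± 0.18), Grpel1 (probe GE1139194, -0.21 ± 0.11), which helps the motor's Hsp70 release its nucleotide, and the co-chaperonin Hspe1 (probe GE22182, -0.32 ± 0.17). None of them passed (limma adjusted p = 0.369, 0.384, 0.472 and 0.472 in that order). Over all rats the second probe of Hspd1 (GE22129) differed by 0.05 ± 0.31 (SE, limma adjusted p = 0.963), opposite in sign to GE1159255. Those of Grpel1 (GE20990) and Hspe1 (GE20087) differed by -0.12 ± 0.12 (adjusted p = 0.693) and -0.25 ± 0.18 (adjusted p = 0.591). Timm21 rested on P 1, P 2, NP 2 and NP 3, since its spot was flagged as contaminated in the other rats. Within scan date 1, Hspd1 GE1159255 (-0.81, adjusted p = 0.0355), Hspe1 GE22182 (-0.59, adjusted p = 0.0475) and the outer membrane protein Mtx2 (-0.79, adjusted p = 0.0307) were lower in P. That was 3 of 19 probes, beside 4.54% of all probes lower, and Mtx2 was named after its value was seen. Second probes of Hspd1 (GE22129, -0.46, adjusted p = 0.213) and Hspe1 (GE20087, -0.56, adjusted p = 0.0909) did not pass there.

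Chchd4 and Gfer, which belong to the relay that oxidises the small Tim proteins so that they fold, did not pass. The P minus NP differences were 0.06 ± 0.12 (SE) and 0.09 ± 0.22 for the probes of Chchd4 and 0.16 ± 0.14 for Gfer. Timm10b, the small Tim bound to the carrier insertase, differed by 0.05 ± 0.29 between the lines. Between the P rats of date 3 and date 1 Timm10b differed by 0.98 (limma adjusted p = 0.0143) and Mtx2 by 1.22 (adjusted p = 0.00405), and 6 of these 18 import probes were higher and none was lower, beside 9.15% and 7.56% of all probes.

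**Figure D4:**
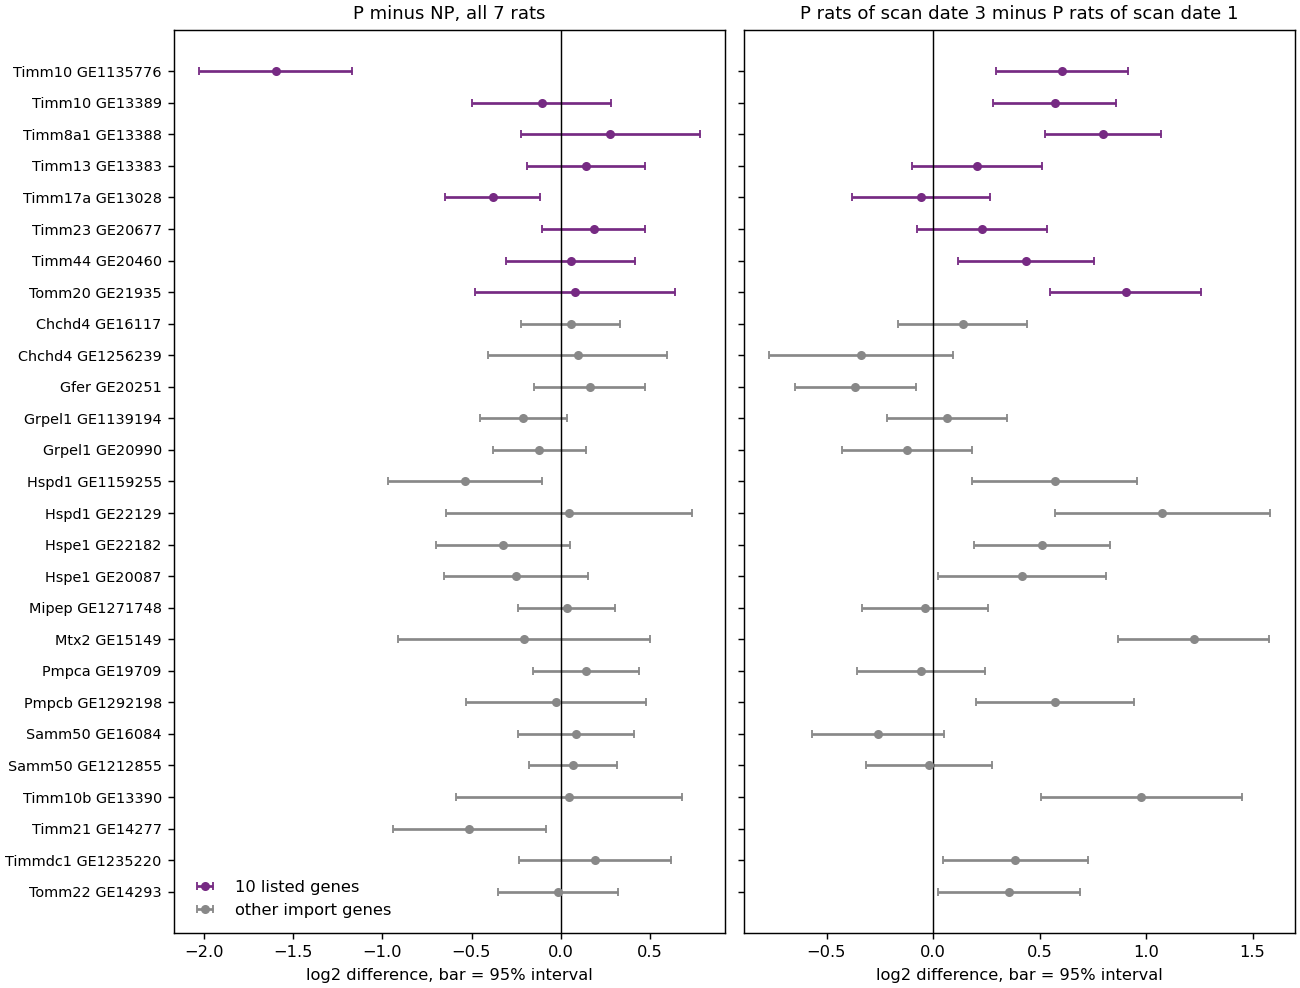
Log2 differences with 95% intervals for the probes of the listed genes (purple) and of other import genes (grey), on the left P minus NP over all 7 rats and on the right P rats of scan date 3 minus P rats of scan date 1. On the left Timm10 GE1135776 (-1.60) stands apart. On the right the intervals of Tomm20, Timm8a1, Timm44 and both Timm10 probes lie above 0. So do those of several other import genes, such as Mtx2 and Timm10b, while that of Gfer lies below 0.

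Genes listed as markers of mitochondrial content were set beside the members. Their values are RNA signals, and whether these follow the amount of mitochondria was not tested. Of 15 such genes, measured by 16 probes, none passed between the lines over all 7 rats in limma's fit and 1 had an unadjusted p under 0.05, beside 0.29% and 11.5% of all probes, and the median difference was 0.08 on the log2 scale. Within scan date 1 the median was -0.05, with 11 of 16 below 0, and 2 probes were lower in P, beside 4.54% of all probes. These were the carrier Slc25a4 (-0.63, adjusted p = 0.0410) and the electron carrier Cycs (-0.73, adjusted p = 0.0484), both named after their values were seen. Citrate synthase (Cs), a matrix enzyme often used as a gauge of mitochondrial content, differed by 0.37 ± 0.12 (SE, limma adjusted p = 0.319). Tfam, which packages mitochondrial DNA, differed by -0.40 ± 0.21 (adjusted p = 0.475). Between the P rats of date 3 and date 1, 4 of the 16 probes were higher and none was lower, beside 9.15% and 7.56% of all probes.

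Over the 7 rats, the signals most like Timm10 GE1135776 among 6265 named probes were those of Gnl2, a nucleolar GTPase (Pearson r = 0.980), Ddit3, a stress-response transcription factor (r = 0.978), Cd302, a lectin receptor (r = 0.978), Ppat, the first enzyme of purine synthesis (r = 0.966), and Tial1, an RNA-binding protein (r = 0.965). Since the probe they resemble was selected for separating the lines, a line difference in these 5 follows from their choice. Ppat was above background in only 2 of the 4 P rats, so its level in P is not well measured. Among the members, Timm17a had the highest correlation with GE1135776 (r = 0.843), while GE13389 went most closely with Tomm20 (r = 0.881) and Timm8a1 (r = 0.772). These correlations describe 7 arrays that share the line difference and the scan dates, and they carry no test.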

How the data were processed

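Per the labels, biotin-labelled RNA of 7 rats was hybridized to 1 array each, and per the series' design text the authors dropped a further NP array. Groups and replicate numbers come from the sample titles. The deposited CodeLink scanner files give spot, local background, background-subtracted and scaled intensity, per the file headers. The authors also deposited log2 values by an unstated method. Matched by spot position, these followed log2 of the scaled intensity (r from 0.9985), with column medians of -0.07 to 0.05, so scale and direction are known and any adjustment between arrays is not. No label or header names a genome build.

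Intensities were corrected with limma 3.58.1 in R 4.3.3 (normexp, offset 50), control spots were dropped, masked, irregular or contaminated spots were set to missing, and transcript probes were quantile normalized. Probes above background on at least 3 of 7 arrays were kept (29008), and 29003 could be fitted. limma's lmFit and eBayes, with no block, gave the line difference, and Benjamini-Hochberg adjustment ran over all tested probes. A call is an adjusted p under 0.05. The fit was tested on simulated data. The number of arrays limits the precision.

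Genes were named through probe accessions found among the transcripts of RefSeq's GRCr8 table (7207 of 33849 probes, 6046 genes), and promoters are RefSeq's. Members, lists and tests were chosen with earlier results of these data known, and 1 further import gene was left out of the list and is not reported here. Named are all member probes, the first import genes by p, and the 5 named genes with the highest correlation to the Timm10 probe. Replicate numbers shared by the lines do not mark a common litter or day in the labels.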

Additional observations from a re-analysis of the deposited data

Results flagged for a closer look

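The Grpel1 signal of probe GE20990 was 9.36 (log2) in P 4, below 9.61 to 9.64 in the other P rats. The Chchd4 signal of probe GE16117 was 8.06 in P 1, below 8.30 to 8.34 in the other P rats. Each lay far from the other P rats for its narrow range, and these were 2 of 40 sets of 4 P values examined, where about 2 are met by chance. No member probe was among them, and the 3 NP rats were too few to examine.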

How the results depend on the processing

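The Timm10 GE1135776 difference kept its sign in all 17 other settings. It was -2.00 within scan date 1 and with scan date as a block, and ranged from -1.70 to -1.44 when 1 rat was left out. In the authors' values it was -1.73 but 0 of 8 member probes passed. No member other than this probe passed in any setting. Over all probes 84 passed as reported, against 49 among probes above background on every array, 51 in the authors' values, 1659 with scan date as a block (28.9% higher in P, against 46.4%), 1847 within date 1 (29.0% higher), and 51 to 121 with 1 rat left out. The lowest counts came without NP 4 (51) and NP 3 (53). Of the other import probes 3 passed with the date block and 3 within date 1, against 0 as reported and in each remaining setting. Between the P dates 4 member probes passed, against 1 with plain subtraction, 0 in the authors' values and 1 to 4 with 1 rat left out. Of the settings, keeping flagged spots and every alternative for the P dates were added after seeing the data.

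Deviations of same-numbered rats correlated at 0.10, 0.06 and 0.02 for replicates 2, 3 and 4. Only the rats of replicate 2 shared a scan date, so these values cannot decide whether the numbers pair the rats. With replicate number as a block, which leaves P 1 without a partner, 102 probes passed, and Timm10 GE1135776 differed by -1.55 and GE13389 by -0.04.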
